A study of Homo sapiens with 6 samples.

Results

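The genes described here are 10 components and targets of bone morphogenetic protein (BMP) signalling, which were taken from the count table by their symbols: the inhibitor of DNA binding genes ID1, ID2, ID3 and ID4, the ligand genes BMP2 and BMP4, the receptor genes BMPR1A and BMPR2, and the SMAD genes SMAD6 and SMAD9. They are 10 of the 59653 genes in the table. RNA was sequenced from SK-OV3, an ovarian cancer line of human origin that lacks p53 and is labelled as wild type in both groups. In the siPVT1 group (3 libraries), the cells were transfected with a pool of siRNAs against PVT1, a long noncoding RNA. In the siControl group (3 libraries), they received a non-targeting Lincode pool. Both groups were transfected at 50 nM with RNAiMAX and harvested after 48 h. All siPVT1 libraries carry the same siRNA pool, so effects of the loss of PVT1 and other effects of that pool cannot be told apart. The labels do not say whether the replicates were separate cultures, so the p-values measure only the spread between these libraries, which may be technical.

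BMPs are secreted ligands of the TGF-beta family. A BMP dimer binds a complex of type I receptors (such as BMPR1A) and type II receptors (such as BMPR2), the type II receptor phosphorylates the type I receptor, and the type I receptor phosphorylates SMAD1, SMAD5 and SMAD9 (also called SMAD8), which enter the nucleus with SMAD4. The ID genes are among the best known direct targets of this pathway. ID proteins have a helix-loop-helix domain but no basic DNA-binding region. They pair with the E proteins, encoded by TCF3, TCF4 and TCF12, and keep them off DNA, which holds back differentiation. SMAD6 is an inhibitory SMAD that limits BMP signalling and is itself a BMP target. In ovarian surface epithelium and ovarian cancer cells, BMP ligands, receptors and ID proteins have all been described.

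The total count per library lay between 28383171 and 35059576. PVT1 itself was at 3298, 4090 and 3377 normalized counts in siControl replicates 1, 2 and 3 and at 2350, 2111 and 2062 in siPVT1 replicates 1, 2 and 3, which is 60.6% of the siControl level (log2 fold change -0.72, SE 0.0967, adjusted p = 0.000342 by edgeR's quasi-likelihood test). A gene was called where its Benjamini-Hochberg adjusted p-value was under 0.05 and its log2 fold change was at least 1 in size. The test covered 19008 genes, those that reached 5 normalized counts in 3 or more libraries, and of these 9.64% were called lower and 11.8% higher in siPVT1. With the adjusted p-value alone, 28.4% were lower and 29.5% higher, and for 32.3% the groups did not overlap and siPVT1 was the lower one, against 33.2% where it was the higher one. These shares are the background for each count below. The siPVT1 libraries varied more among themselves (a chi-square over all genes, per degree of freedom, of 8.37 to 44.2 between pairs) than the siControl libraries did (1.71 to 5.58). The 8 epithelial and ovarian carcinoma markers were detected, and their summed level was 20576 to 22967 normalized counts in siControl and 28191 to 31420 in siPVT1. Most of that sum was KRT8 and KRT18. Within that list KRT19 was called higher (log2 fold change 2.30) and WT1 lower (-1.01). By the adjusted p-value alone KRT8, KRT18 and PAX8 were also higher and ERBB2 was lower (-0.43), while EPCAM and MUC16 did not pass. Of the leukocyte and erythroid markers, only CD68 was above 3 counts in any library. In bulk RNA, fewer cells that express a gene and less of its RNA per cell cannot be told apart.

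ID1, ID2 and ID3 fell together, and their promoters, chosen because of that fall, are shown here beside the values that follow. Each window holds the 250 bases before the RefSeq transcription start (assembly GRCh38.p14), 5′ to 3′ on the gene's own strand. ID1 lies at chr20:31605039-31605288 (plus strand), ID2 at chr2:8681806-8682055 (plus strand) and ID3 at chr1:23559502-23559751 (minus strand). Capitals mark the motifs that were found, on either strand.
ID1: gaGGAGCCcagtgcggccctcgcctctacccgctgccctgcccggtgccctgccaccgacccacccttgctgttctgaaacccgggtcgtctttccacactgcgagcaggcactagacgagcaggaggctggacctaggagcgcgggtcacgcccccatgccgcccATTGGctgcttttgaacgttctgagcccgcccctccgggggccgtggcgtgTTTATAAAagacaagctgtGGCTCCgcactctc
ID2: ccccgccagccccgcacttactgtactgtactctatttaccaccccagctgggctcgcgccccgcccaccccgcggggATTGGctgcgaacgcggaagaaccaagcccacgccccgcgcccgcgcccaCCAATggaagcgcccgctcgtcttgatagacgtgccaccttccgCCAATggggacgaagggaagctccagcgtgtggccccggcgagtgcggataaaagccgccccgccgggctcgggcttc
ID3: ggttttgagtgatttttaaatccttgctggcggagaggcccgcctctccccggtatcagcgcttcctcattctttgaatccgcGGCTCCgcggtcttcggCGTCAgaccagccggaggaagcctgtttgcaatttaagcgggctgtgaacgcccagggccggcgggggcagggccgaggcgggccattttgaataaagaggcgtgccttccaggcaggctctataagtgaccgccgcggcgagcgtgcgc
The motifs searched on both strands were the GC-rich SMAD1/5 site GGCGCC and its variant GGAGCC, the E-box CACGTG, the CRE core TGACG, the EGR sites GCGGGGGCG and GCGTGGGCG, the CCAAT box CCAAT and the TATA box TATAAA. Counting back from the start site, the ID1 window held GGAGCC at -248 and, on the minus strand, at -14, a reversed CCAAT box at -84 and a TATA box at -31 that overlaps a second match on the minus strand at -33. The ID2 window held 3 CCAAT boxes, at -172 on the minus strand and at -122 and -78 on the plus strand. In the ID3 window, GGAGCC lay at -167 and the CRE core at -150, both on the minus strand. The symmetric GC-rich site, the E-box form CACGTG and the EGR sites were in none of the 3 windows. Other forms of the E-box, including those that E proteins bind, were not searched. Over all 35116 RefSeq promoter windows of the same length, GGCGCC was in 16.4%, GGAGCC in 30.6%, CACGTG in 6.34%, TGACG in 21.2%, GCGGGGGCG in 4.72%, GCGTGGGCG in 0.72%, CCAAT in 32.0% and TATAAA in 10.7%. No searched motif was in all 3 windows. GGAGCC also lay in windows of ID4, BMPR2, SMAD6 and SMAD9, which were not called, and of BMP4, which was called higher. The ID4 window also held a CCAAT box and a TATA box. These matches are letters in a short window and not measured sites, and the BMP-responsive elements described for ID1 lie further upstream. A link between any motif and the falls was not tested. Of the 10 genes, 9 had a window in RefSeq's table. BMP2 did not.

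ID1, ID2 and ID3 were the genes of the set that fell most in siPVT1 cells, ID3 the furthest, and no difference in ID4 was detectable at its depth. ID1, which pairs with E proteins and is the ID gene most often used to read out BMP signalling, was at 1834, 1589 and 1931 normalized counts in siControl replicates 1, 2 and 3, and at 337, 296 and 191 in siPVT1 replicates 1, 2 and 3. No siPVT1 library came near the siControl range. The mean fell from 1785 ± 176 to 275 ± 75.6 (SD, n = 3 libraries per group, as for all means here), which is 6.53-fold lower (log2 fold change -2.71, SE 0.188, 95% interval -3.14 to -2.27, adjusted p = 1.15e-05 by edgeR's quasi-likelihood test). The gene lies at chr20:31605283-31606515 on the plus strand.

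ID3, a close relative of ID1 that is often induced with it, was at 987, 863 and 1059 normalized counts in siControl replicates 1, 2 and 3. In siPVT1 replicates 1, 2 and 3 it was at 96.9, 63.4 and 60.1. The lowest siControl value was thus many times the highest siPVT1 value. The mean fell from 969 ± 99.1 to 73.5 ± 20.3, which left 7.54% of the siControl level (13.3-fold lower, log2 fold change -3.73, SE 0.175, 95% interval -4.13 to -3.33, adjusted p = 1.99e-06). On the scale of all 19008 genes tested, the log2 fold change of ID3 lay at percentile 0.676, that of ID1 at 1.48 and that of ID2 at 1.52, counted from the lowest. The gene lies at chr1:23557926-23559501 on the minus strand.

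ID2, which is also an E protein partner and has been described to bind the retinoblastoma protein, was at 335, 296 and 305 normalized counts in siControl replicates 1, 2 and 3. It was at 54.6, 51.4 and 40.4 in siPVT1 replicates 1, 2 and 3. Here too the groups were far apart, and the spread within each was small. The mean fell from 312 ± 20.6 to 48.8 ± 7.43, which is 6.42-fold lower (log2 fold change -2.68, SE 0.137, 95% interval -3.00 to -2.37, adjusted p = 2.93e-06). ID2 lies at chr2:8678845-8684461, where an antisense noncoding gene, ID2-AS1, overlaps it on the other strand. The strand setting of the counting is not given in the sources used here, but ID2-AS1 itself held only 5 to 17 counts in any library.

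ID4, the fourth family member, was near the detection limit, with 10.5, 13.1 and 16.6 normalized counts in siControl replicates 1, 2 and 3. The siPVT1 replicates 1, 2 and 3 held 7.80, 18.6 and 2.82. The groups overlapped, and siPVT1 held both the highest and the lowest of the 6 values. The log2 fold change was -0.49 (SE 0.570, 95% interval -1.80 to 0.82, adjusted p = 0.493). The lower bound of that interval is above the log2 fold changes of ID1, ID2 and ID3, but the difference between ID4 and these genes was not tested. ID4 lies at chr6:19837370-19842197, and a noncoding gene on the opposite strand, LNC-LBCS, overlaps it. Whether reads from LNC-LBCS entered the ID4 counts was not settled, because the strand setting is not given.

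**Figure D1:**
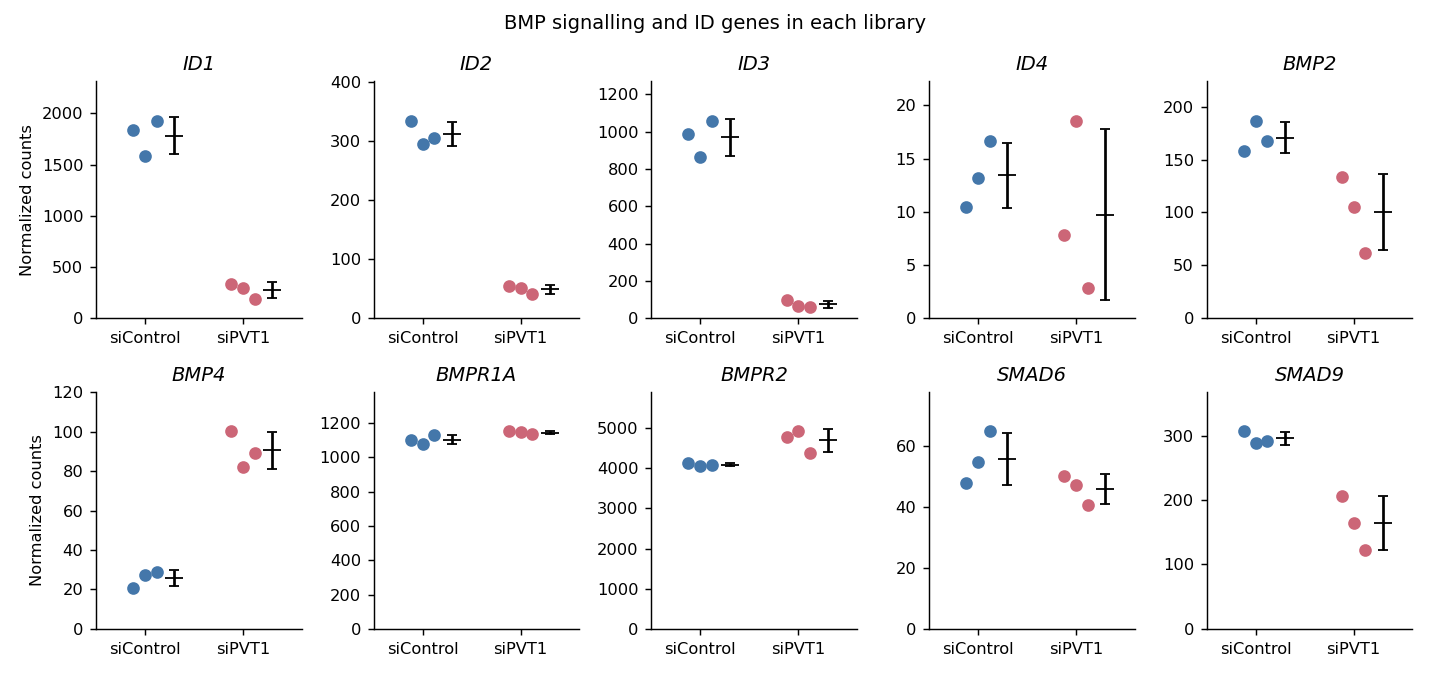
Normalized counts (vertical axes, each starting at 0) of the 10 genes in the 3 siControl libraries (blue) and the 3 siPVT1 libraries (red), 1 point per library in the order of the replicate numbers, with the mean and SD as a black mark beside them. ID1, ID2 and ID3 drop to a small part of their siControl level in every siPVT1 library, BMP4 lies between 21.0 and 28.6 in siControl and between 81.9 and 100.2 in siPVT1, and ID4 and SMAD6 overlap between groups.

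The 2 ligand genes moved in opposite directions. BMP4, a ligand with roles in mesoderm, germ cell and follicle development, was at 21.0, 27.3 and 28.6 normalized counts in siControl replicates 1, 2 and 3. It was at 100.2, 81.9 and 89.3 in siPVT1 replicates 1, 2 and 3. The lowest siPVT1 value was well above the highest siControl value. The mean rose from 25.6 ± 4.10 to 90.5 ± 9.20, which is 3.52-fold higher (log2 fold change 1.81, SE 0.194, 95% interval 1.37 to 2.26, adjusted p = 0.0001 by edgeR's quasi-likelihood test). BMP4 lies at chr14:53949736-53958761 on the minus strand and is overlapped by an unnamed noncoding gene on the other strand. Because the strand setting of the counting is not given, whether reads from that gene entered the BMP4 counts was not settled.

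BMP2, the closest relative of BMP4 among the ligands and an osteogenic factor, was at 158, 187 and 167 normalized counts in siControl replicates 1, 2 and 3 and at 134, 105 and 62.0 in siPVT1 replicates 1, 2 and 3. All siPVT1 values were below all siControl values, but siPVT1 replicate 1 lay close to siControl replicate 1. The mean went from 171 ± 14.7 to 100.2 ± 36.0 (log2 fold change -0.78, SE 0.243, 95% interval -1.34 to -0.22, adjusted p = 0.0243), a fall under the 2-fold minimum. This fall depended on single libraries. Without siControl replicate 2, siControl replicate 3 or siPVT1 replicate 2, the adjusted p was 0.0837, 0.0590 and 0.0595. Without siPVT1 replicate 1, the log2 fold change was -1.06 (adjusted p = 0.00473). The gene lies at chr20:6767686-6780246.

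Set side by side per transcript length, as normalized counts per kilobase of the canonical transcript, BMP2 made up 78.5% ± 2.20 of the summed BMP2 and BMP4 RNA in siControl and 36.9% ± 8.17 in siPVT1. The sum itself was 55.4, 66.8 and 62.0 normalized counts per kilobase in siControl replicates 1, 2 and 3, and in siPVT1 replicates 1, 2 and 3 it was 89.6, 72.0 and 63.7. Thus, per length, BMP4 replaced BMP2 as the more abundant of both in each siPVT1 library, while the sums of the groups overlapped. By normalized counts not divided by length, BMP2 stayed above BMP4 in siPVT1 replicates 1 and 2 (134 against 100.2 and 105 against 81.9). In siPVT1 replicate 3 it was below BMP4 (62.0 against 89.3). The order in siPVT1 therefore depends on the canonical lengths used, 3545 bases for BMP2 and 1931 for BMP4. The log2 ratio of BMP4 to BMP2 per length was -1.87 ± 0.187 in siControl and 0.79 ± 0.527 in siPVT1, a difference of 2.66 with no overlap. An exact two-sided permutation test gave p = 0.1, the smallest value that 3 libraries against 3 allow.

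Both receptor genes differed by at most 0.20 on the log2 scale. BMPR1A, a type I receptor for BMP2 and BMP4, was at 1098, 1077 and 1131 normalized counts in siControl replicates 1, 2 and 3 and at 1151, 1146 and 1134 in siPVT1 replicates 1, 2 and 3. The siPVT1 values were all above the siControl values, but by less than the spread the test allows for. The log2 fold change was 0.05 (SE 0.0603, 95% interval -0.08 to 0.19, adjusted p = 0.474 by edgeR's quasi-likelihood test), and it turned to -0.10 where libraries were scaled by their total count, which moved the median of all genes by -0.15 on the log2 scale. As reported, the interval holds no change larger than 0.19 in either direction. BMPR1A lies at chr10:86756596-86932825, and its pseudogenes BMPR1AP1 and BMPR1AP2 took 1 to 6 and 12 to 16 counts per library. A small nuclear RNA gene on the same strand, RNU1-19P, overlaps BMPR1A.

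BMPR2, the type II receptor that is mutated in heritable pulmonary arterial hypertension, was at 4121, 4047 and 4076 normalized counts in siControl replicates 1, 2 and 3 and at 4777, 4918 and 4374 in siPVT1 replicates 1, 2 and 3. The groups did not overlap. The mean went from 4081 ± 37.0 to 4690 ± 282 (log2 fold change 0.20, SE 0.0619, 95% interval 0.06 to 0.34, adjusted p = 0.0230). The adjusted p was under 0.05 in 6 of 12 alternatives. Without any 1 library other than siPVT1 replicate 3 it was between 0.0506 and 0.112, and with scaling by the total count the log2 fold change was 0.05 (adjusted p = 0.505). The gene lies at chr2:202376327-202567751, where the protein-coding gene ENSG00000289490 and the pseudogene RPL13AP12 overlap it on the same strand.

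SMAD9, a receptor-activated SMAD whose own transcription responds to BMP, was at 307, 289 and 291 normalized counts in siControl replicates 1, 2 and 3 and at 206, 164 and 122 in siPVT1 replicates 1, 2 and 3. Every siPVT1 library was below the siControl range, with a wider spread than in siControl. The mean fell from 296 ± 9.69 to 164 ± 41.9 (1.81-fold lower, log2 fold change -0.85, SE 0.172, 95% interval -1.25 to -0.46, adjusted p = 0.00300), short of the 2-fold minimum. It passed that minimum with scaling by the total count (-1.004, adjusted p = 0.00136) and without siPVT1 replicate 1 (-1.07, adjusted p = 0.000411). SMAD9 lies at chr13:36844831-36920887 on the minus strand. A noncoding gene on the same strand, SMAD9-IT1, overlaps it and held 0 to 2 counts per library.

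SMAD6, which competes with the receptor-activated SMADs, was at 47.6, 54.6 and 64.7 normalized counts in siControl replicates 1, 2 and 3 and at 50.1, 47.0 and 40.4 in siPVT1 replicates 1, 2 and 3. The groups overlapped. The log2 fold change was -0.28 (SE 0.196, 95% interval -0.73 to 0.17, adjusted p = 0.251). The lower bound of the interval is above the log2 fold changes of ID1, ID2 and ID3, but the difference between SMAD6 and these genes was not tested. The gene lies at chr15:66702236-66782849, where a noncoding gene on the same strand, ENSG00000274995, overlaps it.

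Counted over the set, 3 of the 10 genes were called lower (ID1, ID2 and ID3) and 1 higher (BMP4), where 9.64% and 11.8% of all genes tested were. With the adjusted p-value alone, 5 were lower (BMP2 and SMAD9 in addition) and 2 higher (BMPR2 in addition), against a background of 28.4% and 29.5%. For 5 genes all siPVT1 libraries were below all siControl libraries and for 3 genes all were above, where 32.3% and 33.2% of all genes were. The median log2 fold change of the 10 was -0.63, and that of all genes tested was 0.0014. Within siPVT1, replicate 3 held the lowest of the 3 values for 9 of the 10 genes, all except BMP4, while it held the lowest value for 39.5% of all genes tested.

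**Figure D2:**
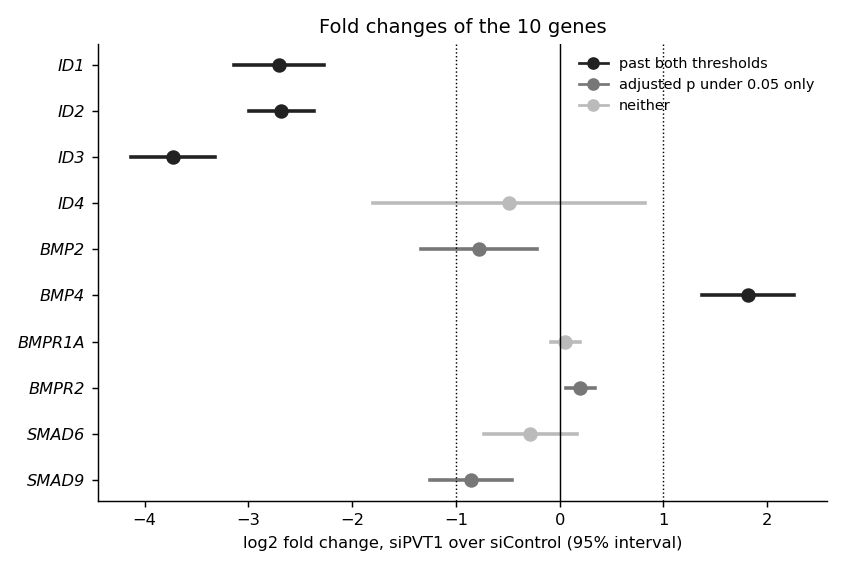
Log2 fold change of each of the 10 genes, siPVT1 over siControl (horizontal axis), with its 95% interval as a bar, 3 libraries per group. Black marks genes past both thresholds, mid grey those with an adjusted p-value under 0.05 only and light grey the rest, and the dotted lines stand at -1 and 1. The intervals of ID1, ID2 and ID3 lie wholly below -2.27 and that of BMP4 wholly above 1.37.

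**Figure D3:**
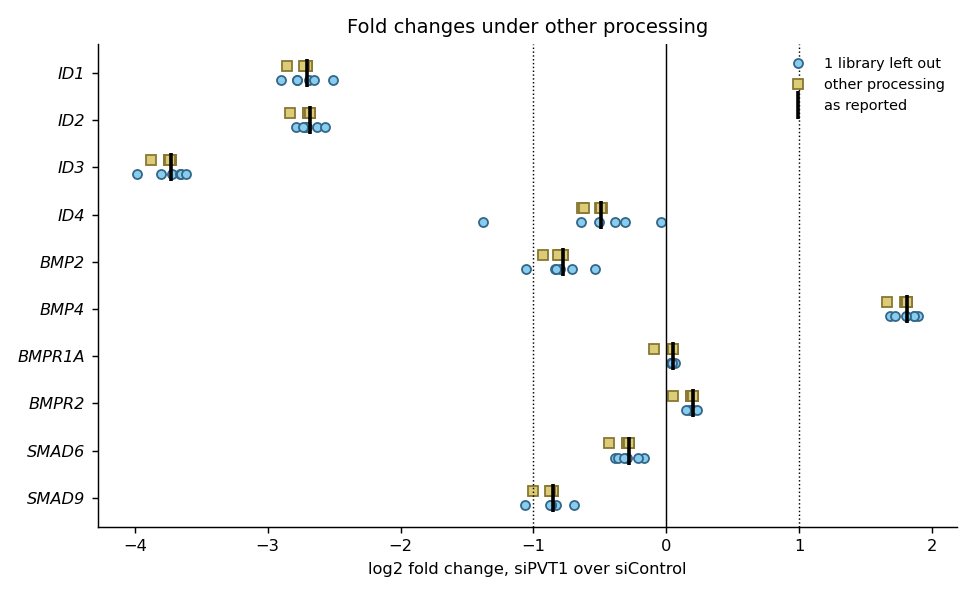
Log2 fold change of each gene as reported (black bar), with 1 library left out (blue circles, 6 per gene) and under other scaling, filters, tests or with the replicate block (yellow squares, 6 per gene). ID3 stayed between -3.99 and -3.61, ID1 between -2.90 and -2.51, ID2 between -2.83 and -2.57 and BMP4 between 1.66 and 1.90, whereas ID4 ranged from -1.38 to -0.04.

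Per transcript length the order of the 10 genes changed. In siControl, ID1 stood first with 1815 ± 179 normalized counts per kilobase, ahead of ID3 with 1020 ± 104, BMPR2 with 338 ± 3.07, ID2 with 240 ± 15.8 and BMPR1A with 172 ± 4.22. SMAD9 with 53.2 ± 1.74 and BMP2 with 48.2 ± 4.15 overlapped, as did SMAD6 with 14.5 ± 2.24 and BMP4 with 13.3 ± 2.12, and ID4 came last with 3.46 ± 0.797. All other neighbours in that order were separate in all libraries. In siPVT1, BMPR2 stood first with 389 ± 23.4, followed by ID1 with 280 ± 76.9, BMPR1A with 178 ± 1.39, ID3 with 77.3 ± 21.4, BMP4 with 46.9 ± 4.76 and ID2 with 37.5 ± 5.72. ID2, SMAD9 with 29.5 ± 7.54 and BMP2 with 28.3 ± 10.2 overlapped, and below them came SMAD6 with 11.97 ± 1.29 and ID4 with 2.51 ± 2.08.

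ID proteins act by the number of E protein molecules they can hold, so the RNA of both was compared per length. The 4 ID genes together were at 3165, 2756 and 3317 normalized counts per kilobase in siControl replicates 1, 2 and 3 and at 489, 412 and 289 in siPVT1 replicates 1, 2 and 3. The E protein genes TCF3, TCF4 and TCF12 together were at 820, 791 and 807 in siControl and at 754, 733 and 752 in siPVT1. The ID sum was therefore above the E protein sum in each siControl library and below it in each siPVT1 library. The ratio of both sums was 3.82 ± 0.316 in siControl and 0.532 ± 0.135 in siPVT1. Both the order and the ratio depend on the canonical lengths used, such as 983 bases for ID1, 950 for ID3, 6114 for TCF12 and 8041 for TCF4. By normalized counts not divided by length, the ID sum was below the E protein sum in every library of both groups. The comparison covers RNA and says nothing of protein amounts.

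The makeup of the ID RNA also shifted, since ID3 fell further than ID1. ID1 made up 58.9% ± 0.274 of the ID RNA per length in siControl and 70.1% ± 2.98 in siPVT1, ID3 33.1% ± 0.416 and 19.6% ± 3.04, and ID2 7.83% ± 0.659 and 9.64% ± 1.09. The log2 ratio of ID3 to ID1 went from -0.83 ± 0.0139 to -1.85 ± 0.292, a difference of -1.02 without overlap, and the exact two-sided permutation test gave p = 0.1, the smallest it can give here. The log2 ratio of ID2 to ID1 was -2.92 ± 0.131 in siControl and -2.87 ± 0.202 in siPVT1, where the groups overlapped (difference 0.05, exact permutation p = 0.8).

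**Figure D4:**
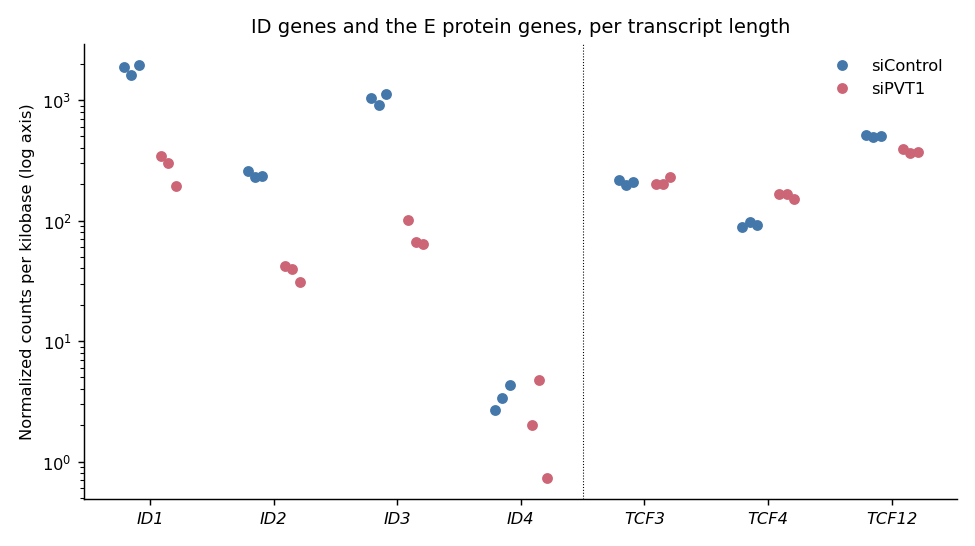
Normalized counts per kilobase of canonical transcript (log axis) of the 4 ID genes and the 3 E protein genes, with 3 siControl libraries in blue and 3 siPVT1 libraries in red. ID1 and ID3 lie above every E protein gene in siControl, and in siPVT1 ID3 falls below all 3 of them, while TCF3, TCF4 and TCF12 move by far less.

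Of the partners of ID proteins, none of the 6 tested (11 listed) was called, and their median log2 fold change was 0.14. By the adjusted p-value alone 3 were higher and 2 lower (background 29.5% and 28.4%). TCF4 rose from 742 ± 31.3 to 1293 ± 68.9 normalized counts (log2 fold change 0.80, adjusted p = 4.27e-05) and TCF12 fell from 3098 ± 60.1 to 2295 ± 76.5 (-0.43, adjusted p = 0.000302). TCF3 was at 982 ± 41.5 and 997 ± 86.2 (0.02, adjusted p = 0.828), a difference whose sign depended on the scaling and on single libraries. TWIST1, a mesenchymal helix-loop-helix factor, rose (0.61, adjusted p = 0.00736) and HES1 fell (-0.43, adjusted p = 0.00971). TWIST2 was at 0.25 (adjusted p = 0.0336), but its adjusted p was under 0.05 in only 3 of 12 alternatives, and with scaling by the total count it was at 0.0996 (adjusted p = 0.335). Without any 1 library other than siPVT1 replicate 3, the adjusted p of TWIST2 was between 0.0865 and 0.129. USP1, the deubiquitinase that protects ID proteins from degradation, was at 4566, 4332 and 4463 normalized counts in siControl replicates 1, 2 and 3 and at 1909, 2455 and 3512 in siPVT1 replicates 1, 2 and 3. It was lower in each siPVT1 library (log2 fold change -0.76, SE 0.188, adjusted p = 0.00842), past the fold minimum without siPVT1 replicate 3 (-1.05), and its cofactor WDR48 was at 0.08 (adjusted p = 0.405).

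Beyond the 10 genes, 75 further genes of the BMP pathway and of ID protein biology were listed by role, with earlier results of these data known. Of these, 54 were tested, 11 were called higher (background 11.8%) and 5 lower (background 9.64%). By the adjusted p-value alone 22 were higher (background 29.5%) and 19 lower (background 28.4%). Their median log2 fold change was 0.05.

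The list with the most calls was that of the secreted BMP antagonists, proteins that bind BMPs or related ligands outside the cell. Of 15 listed, 10 were tested, 7 were called higher and none lower (background 11.8% and 9.64%). By the adjusted p-value alone 9 were higher and 1 lower (background 29.5% and 28.4%), and the median log2 fold change was 1.26. GREM1 (gremlin 1), which binds BMP2 and BMP4, rose from 9601 ± 95.3 to 25524 ± 819 normalized counts (log2 fold change 1.41, SE 0.0541, adjusted p = 1.03e-06). NOG (noggin), the classical BMP4 antagonist and itself induced by BMPs, was at 193, 159 and 186 in siControl replicates 1, 2 and 3 and at 903, 617 and 397 in siPVT1 replicates 1, 2 and 3. All siPVT1 values of NOG were above the siControl values, and they varied more than 2-fold among themselves (log2 fold change 1.83, SE 0.273, adjusted p = 0.000619). CHRD (chordin) was at 1.90, 2.02 and 3.69 in siControl and at 22.3, 32.8 and 20.7 in siPVT1 (3.24, SE 0.408, adjusted p = 0.000246). CHRD passed the count minimum only through the siPVT1 libraries. Its p-value and its place among the 7 calls are therefore not independent of its direction. FST (follistatin), which binds activins more tightly than BMPs, rose from 248 ± 21.2 to 928 ± 81.4 (1.90, adjusted p = 3.46e-06).

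FSTL1, a follistatin-like secreted protein, rose from 18621 ± 232 to 52811 ± 4920 normalized counts (log2 fold change 1.504, adjusted p = 2.82e-06) and was, per length, the most abundant of the antagonist genes in both groups. CHRDL1 (chordin-like 1) rose from 1864 ± 32.7 to 3815 ± 306 (1.03, adjusted p = 1.17e-05) and BMPER, a BMP-binding endothelial regulator, from 49.6 ± 1.58 to 107 ± 16.9 (1.11, adjusted p = 0.000670). Both lay close to the fold minimum. With scaling by the total count CHRDL1 was at 0.88 and BMPER at 0.96, so that 5 of the 10 were called, and without siPVT1 replicate 1, 2 or 3, 4, 5 and 6 of the 9 then tested were. Of the rest, TWSG1 (0.78) and FSTL3 (0.51) were higher by the adjusted p-value alone, and NBL1 (-0.29) was the one that was lower.

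Among the other ligand genes, 7 of 12 were tested, 2 were called higher and 2 lower (background 11.8% and 9.64%), and the median log2 fold change was -0.17. BMP6, a ligand of the BMP7 subgroup, was at 120, 108 and 115 normalized counts in siControl replicates 1, 2 and 3 and at 31.2, 47.0 and 53.6 in siPVT1 replicates 1, 2 and 3. It fell in all 3 siPVT1 libraries (log2 fold change -1.37, SE 0.204, adjusted p = 0.000601). BMP8B rose from 29.3 ± 4.205 to 88.8 ± 11.9 (1.598, SE 0.195, adjusted p = 0.000204). GDF7 and BMP10 were called on few reads, and each passed the count minimum only through the group where it was higher. GDF7 had 2 counts over the siControl libraries and 69 over the siPVT1 libraries, a ratio of 37.4 with a 95% counting interval of 9.98 to 315. BMP10 had 31 counts in siControl and 3 in siPVT1, a ratio of siControl to siPVT1 of 9.52 with an interval of 2.97 to 48.7. These intervals cover counting error only.

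Among the other receptor and co-receptor genes, 7 of 9 were tested, 2 were called higher and 1 lower (background 11.8% and 9.64%), and the median log2 fold change was 0.21. BMPR1B, a type I receptor with a known role in ovarian follicles, was at 217, 234 and 221 normalized counts in siControl replicates 1, 2 and 3 and at 26.7, 43.7 and 52.6 in siPVT1 replicates 1, 2 and 3. This was a 5.40-fold fall without overlap (log2 fold change -2.43, SE 0.205, adjusted p = 2.97e-05). ACVRL1 (ALK1), a type I receptor best known from endothelial cells, rose from 81.4 ± 2.83 to 327 ± 61.9 (2.003, SE 0.154, adjusted p = 1.92e-05), and ACVR2B, a type II receptor shared with activins, from 915 ± 49.0 to 3097 ± 89.4 (1.76, SE 0.0657, adjusted p = 8.75e-07). ENG (endoglin), a co-receptor of ACVRL1, and ACVR1 were higher by the adjusted p-value alone (0.25 and 0.21), and RGMB, a BMP co-receptor, was lower (-0.51). With scaling by the total count ENG was at 0.103 (adjusted p = 0.0966) and ACVR1 at 0.06 (adjusted p = 0.402). The adjusted p of ACVR1 was also 0.0713 without siControl replicate 1, 0.0553 without siControl replicate 3 and 0.0516 without siPVT1 replicate 2. The endothelial markers PECAM1, CDH5 and VWF were all 3 called higher, and none was at 0 in siControl. Their summed level was 2046.5 to 2072 normalized counts in siControl and 8608 to 10883 in siPVT1. Most of that sum was CDH5, at 1998 ± 7.09 in siControl and 9314 ± 1108 in siPVT1. Of the fibroblast markers, COL1A1 was called higher (113 ± 8.70 to 505 ± 7.70 normalized counts). LUM went the other way in the mean, from 15.9 ± 7.64 to 7.23 ± 5.09, and its groups overlapped. It did not pass edgeR's quasi-likelihood test (log2 fold change -1.15, adjusted p = 0.132). DCN had at most 1 count. The sum of the fibroblast markers was 126 to 132 in siControl and 501 to 522 in siPVT1, and most of it was COL1A1. The part of these markers in the changes of ACVRL1, BMPER and GREM1 was not tested.

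The signal transducers SMAD1, SMAD5 and SMAD4 were all lower by the adjusted p-value alone (background 28.4%) and none was called. SMAD1 fell from 633 ± 34.0 to 428 ± 57.1 normalized counts (log2 fold change -0.56, adjusted p = 0.00256), SMAD4 from 1193 ± 27.2 to 985 ± 31.6 (-0.28, adjusted p = 0.00574) and SMAD5 from 2828 ± 72.6 to 2461 ± 76.9 (-0.20, adjusted p = 0.0162). For SMAD5 the adjusted p was 0.0637 without siControl replicate 1 and 0.0564 without siControl replicate 3. Per length, SMAD5 stood at 403 ± 10.4, SMAD1 at 211 ± 11.3 and SMAD9 at 53.2 ± 1.74 normalized counts per kilobase in siControl, and SMAD9 was the lowest of these receptor-activated SMADs in both groups.

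Of the 10 intracellular inhibitors, all tested, 1 was called lower (background 9.64%). By the adjusted p-value alone 4 were higher and 4 lower (background 29.5% and 28.4%). BAMBI, a pseudoreceptor that blocks type I receptors and is induced by BMP and Wnt signals, was at 785, 741 and 897 normalized counts in siControl replicates 1, 2 and 3 and at 327, 225 and 191 in siPVT1 replicates 1, 2 and 3. Its groups were well apart (log2 fold change -1.71, SE 0.185, adjusted p = 0.000107). SMAD7, an inhibitory SMAD of both the BMP and TGF-beta branches, fell from 855 ± 31.6 to 576 ± 43.6 (-0.57, adjusted p = 0.000486), and SMURF2, a ubiquitin ligase that works with it, rose from 12070 ± 240 to 23336 ± 2545 (0.95, adjusted p = 3.49e-05). FKBP1A, which binds type I receptors and keeps them inactive, rose by 0.66 (adjusted p = 2.61e-05).

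FURIN, the proprotein convertase that cuts BMP precursors, fell from 2524 ± 59.4 to 1263 ± 83.4 normalized counts, 50.01% of the siControl level (log2 fold change -0.9997, SE 0.0679, adjusted p = 1.05e-05). This was just short of the minimum, and FURIN was called in 8 of 12 alternatives. Of the other genes known as BMP targets, 6 of 8 were tested, 1 was called lower (background 9.64%) and 3 were lower by the adjusted p-value alone (background 28.4%). ATOH8 fell from 18.2 ± 3.89 to 6.55 ± 1.03 (-1.45, SE 0.331, adjusted p = 0.00574), on few reads (23, 14 and 20 counts in siControl, 6, 5 and 8 in siPVT1). HEY1 was at -0.54 (adjusted p = 0.00627) and MSX1 at -0.33 (adjusted p = 0.0133, and 0.0584 without siControl replicate 1). MSX2, DLX5 and RUNX2 did not pass the test, at 0.06, -0.07 and 0.36, and their 95% intervals reached from -0.20 to 0.33, from -0.76 to 0.61 and from -0.02 to 0.73.

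**Figure D5:**
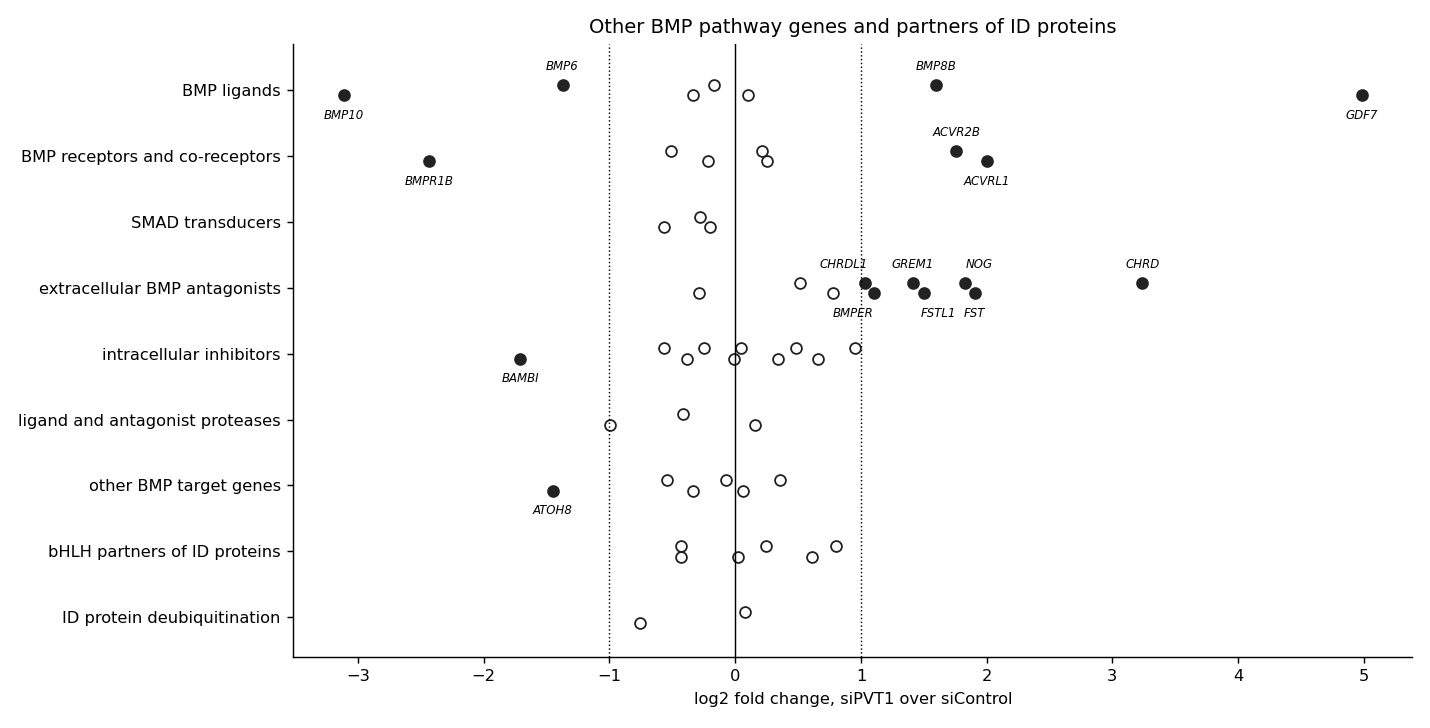
Log2 fold changes (horizontal axis, siPVT1 over siControl) of the 54 tested genes of the pathway lists, 1 row per list. Filled points are genes past both thresholds and open points the rest, and dotted lines stand at -1 and 1. The filled points of the antagonist row all lie on the right, at 1.03 to 3.24. The last is CHRD, which passed the count minimum only through the siPVT1 libraries. The positions of GDF7 and BMP10 rest on few counts and depend on the prior count of the fit.

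The genes whose profiles over the 6 libraries lay nearest to those of ID1 and ID3 were found by the root mean square difference of log2 values, each centred on its siControl mean. For ID1 these were TSGA10IP (difference 0.101), CD22 (0.123) and AL031777.2 (0.159). TSGA10IP went from 34.2 ± 2.43 to 3.20 ± 1.29 normalized counts, and CD22, known as a B cell lectin, from 63.4 ± 0.532 to 7.45 ± 2.38. The levels of both were far below those of ID1. For ID3 the nearest were EGR2 (0.142), EGR1 (0.218) and MUC17 (0.232). EGR1, an immediate early transcription factor, went from 3606 ± 67.4 to 247 ± 25.2 normalized counts and EGR2, of the same family, from 187 ± 16.01 to 13.1 ± 5.33. MUC17 went from 25.6 ± 0.316 normalized counts to 0 in all siPVT1 libraries, so it passed the count minimum only through the siControl libraries. The log2 values carry a prior count of 2, which draws in the differences of scarce genes. The fitted log2 fold changes of TSGA10IP, CD22 and AL031777.2 were -3.39, -3.09 and -2.99, against -2.71 for ID1. That of MUC17 was -7.69, against -3.73 for ID3, and it rests on 0 counts in siPVT1. The place of these scarce genes among the nearest therefore depends on the prior count.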

How the data were processed

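RNA from SK-OV3 cells was measured in 6 libraries (3 siControl, 3 siPVT1), grouped and numbered by their labels. The authors prepared mRNA libraries (KAPA mRNA HyperPrep), sequenced single-end reads on a NextSeq 550, aligned them to GENCODE transcripts (GRCh38) and deposited estimated counts for each gene symbol, rounded and not normalized. The submitters' processing notes name bcl2fastq 2.20.0, STAR 2.7.3a, Salmon 0.14.1 and DESeq2 1.28.1. The strand setting is not given in the sources used here, and Salmon divides reads that near-identical transcripts share by estimation.

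Of 59653 genes, 25268 had 0 counts throughout. In R 4.3.3, edgeR 4.0.16 (TMM, quasi-likelihood test, siRNA as the only term) was fitted to the 19008 genes that reached 5 normalized counts in 3 or more libraries, with Benjamini-Hochberg adjustment over all of them. Standard errors were derived from the log2 fold change and the F statistic. The scripts were tested on simulated counts first.

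The 10 genes, the pathway lists and the markers were chosen with earlier results of these data known. Genes were named by rule (the 10, pathway genes past both thresholds, the 3 genes nearest in profile to ID1 and to ID3 on log2 CPM with a prior count of 2, and PVT1). Other pathway genes were named after their values were seen.

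Levels of different genes were compared as normalized counts per kilobase of the canonical GENCODE v44 transcript, whose annotation on GRCh38 also gave the coordinates. Exact permutation tests were run in scipy 1.17.1. Alternatives were DESeq2 1.42.0, edgeR with the size factors of DESeq2, total-count scaling, no filter, filterByExpr, a block for the replicate number, fits without 1 library and the adjusted p alone. RT-qPCR, doxorubicin and animal experiments were not analysed here.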

Additional observations from a re-analysis of the deposited data

How the results depend on the processing

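ID1, ID2, ID3 and BMP4 kept their direction and stayed past both thresholds in all 12 alternatives each. Over the 10 genes, 116 of 120 alternative values kept their direction and their call by both thresholds together. The exceptions were BMP2 without siPVT1 replicate 1 (-1.06), SMAD9 without siPVT1 replicate 1 (-1.07) and with scaling by the total count (-1.004), all now past the fold minimum, and BMPR1A, which turned to -0.10 with scaling by the total count. TCF3 turned to -0.13 with that scaling, and without 1 library it ranged from -0.0676 to 0.0476 (-0.0083 without siControl replicate 2 and -0.0676 without siPVT1 replicate 3). BMP7 (-0.17) ranged from -1.13 to 0.48 without 1 library, and it was above 0 without siControl replicate 3 (0.48) or siPVT1 replicate 3 (0.39). By the adjusted p alone, BMP2 passed in 9 and BMPR2 in 6 of 12 alternatives. The cause was not tested. Scaling by the total count moved the share of called genes that were higher from 55.1% to 43.8%.

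With the adjusted p alone, 11007 of all genes, 7 of the 10 and 41 pathway genes passed, against 4081, 4 and 16 with the fold minimum. Leaving out 1 library at a time gave 3507 to 4239 calls over all genes, 4 to 6 of the 10 genes (6 without siPVT1 replicate 1) and 13 to 16 pathway genes. In these fits CHRD could not be tested without any 1 siPVT1 library, since only 2 libraries then passed the minimum, and the same holds for GDF7, while BMP10 could not be tested without any 1 siControl library or with filterByExpr. The replicate numbers did not pair the libraries: correlations of same-numbered libraries' deviations were -0.041, 0.038 and 0.004. With the replicate block, 3924 genes, 4 of the 10 and 17 pathway genes were called. Depth limits ID4, BMP10, CHRD, GDF7 and ATOH8, whose counts were few.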

Other observations

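In the siPVT1 group a few scarce genes did not hold a common level. BMP7, a ligand of the BMP6 subgroup, was at 22.3, 44.8 and 1.88 normalized counts in siPVT1 replicates 1, 2 and 3, where siControl replicates 1, 2 and 3 held 19.0, 13.1 and 43.4. BMP8A was at 7.80, 12.02 and 1.88 in siPVT1 and at 10.5, 7.07 and 9.24 in siControl. ID4 had the same order, with its highest value in siPVT1 replicate 2 and its lowest in siPVT1 replicate 3. Among the epithelial markers, MUC16, which encodes CA125, showed this pattern at higher levels, with 199, 635 and 17.9 in siPVT1 and 403, 299 and 625 in siControl, and EPCAM was at 51.2, 107 and 41.3 in siPVT1 and at 64.8, 127 and 97.9 in siControl. None of these 5 genes passed the test (adjusted p = 0.870 for BMP7, 0.637 for BMP8A, 0.493 for ID4, 0.522 for MUC16 and 0.251 for EPCAM by edgeR's quasi-likelihood test). They were picked after their values were seen.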
